A study of Mus musculus with 20 samples.

Results

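The 3 arrays described here are replicates 5, 6 and 7 of the 48 h time point, out of 7 arrays at 48 h and 20 in all, and they are set against 48 h replicates 1 to 4. They were selected on these same log2 ratios, which resembled each other across genes far more than those of the other 48 h arrays, so every log2 ratio of the 48 h comparison below is a description and carries no test. On every array, RNA of MLE12 cells transfected with the NICD1-pIRES-DsRed2 plasmid was hybridised against RNA of MLE12 cells that received the empty vector, with Lipofectamine2000 as the carrier in both cases and harvest at the same time. MLE12 is a mouse alveolar epithelial cell line immortalised with SV40 large T antigen, so both RNAs of an array share that background, and NICD1 is the intracellular domain of Notch1, expressed together with a red fluorescent protein. A positive log2 ratio means more RNA with NICD1 than with the empty vector. The other arrays are 6 at 12 h and 7 at 24 h after transfection, and the series design calls replicates independent.

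The labels give no culture date, transfection day, slide or scan for any array, so a batch shared by 48 h replicates 5 to 7 and a biological difference of those cultures cannot be told apart. The dye does not separate the sets: NICD1 RNA carried Cy3 on replicates 5 and 7 and Cy5 on replicate 6, and Cy3 on replicates 1 and 3 and Cy5 on replicates 2 and 4. In the 48 h replicate 3 column Nrarp, a direct Notch target, stood at -1.58 against 1.31 to 3.24 on the other 48 h arrays, so its sign was taken as inverted and the column multiplied by -1, as was 12 h replicate 3, where Nrarp stood at -1.93. That a positive value means more RNA with NICD1 was judged from Nrarp and its like, which Notch induces. The table holds ratios and no single channel levels, so the cells could not be checked against levels of lung markers. In bulk RNA a change in the number of cells of a kind and a change in RNA per cell cannot be told apart.

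Notch receptors are cleaved after they bind a ligand of the Delta or Jagged family, and the freed intracellular domain enters the nucleus, where it joins the DNA-binding protein Rbpj and Mastermind coactivators and switches on targets such as the Hes and Hey repressors and Nrarp. Several families that differed most between the array sets belong to basic cell upkeep: mitochondrial ribosomes translate the few proteins encoded in mitochondrial DNA, the Tomm and Timm complexes import the rest, the chaperonin and prefoldin fold actin and tubulin, and the proteasome degrades ubiquitin-tagged proteins. On the other side stood genes of the antioxidant programme run by the factor NRF2, of the heat shock response, of the immediate early response to growth signals, and chromatin regulators.

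With the dye effect removed, the 3 pairs among 48 h replicates 5 to 7 correlated between 0.732 and 0.757 across 14473 genes with a value on all 20 arrays. The 6 pairs among replicates 1 to 4 lay between 0.145 and 0.400, and the 12 pairs between the sets between 0.093 and 0.454. Genes of one array share its dyes, labelling and hybridisation, so these correlations describe the arrays and carry no p. Replicate 4 was nearest to the set, at 0.351 to 0.454 with replicates 5 to 7, while replicates 1 to 3 stood at 0.093 to 0.321. The 24 h arrays that carry the numbers 5 to 7 correlated at only 0.237 to 0.279 with each other, within the range of all 24 h pairs of 0.029 to 0.417. Against the 24 h arrays, 48 h replicates 5 to 7 reached at most 0.278.

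**Figure D1:**
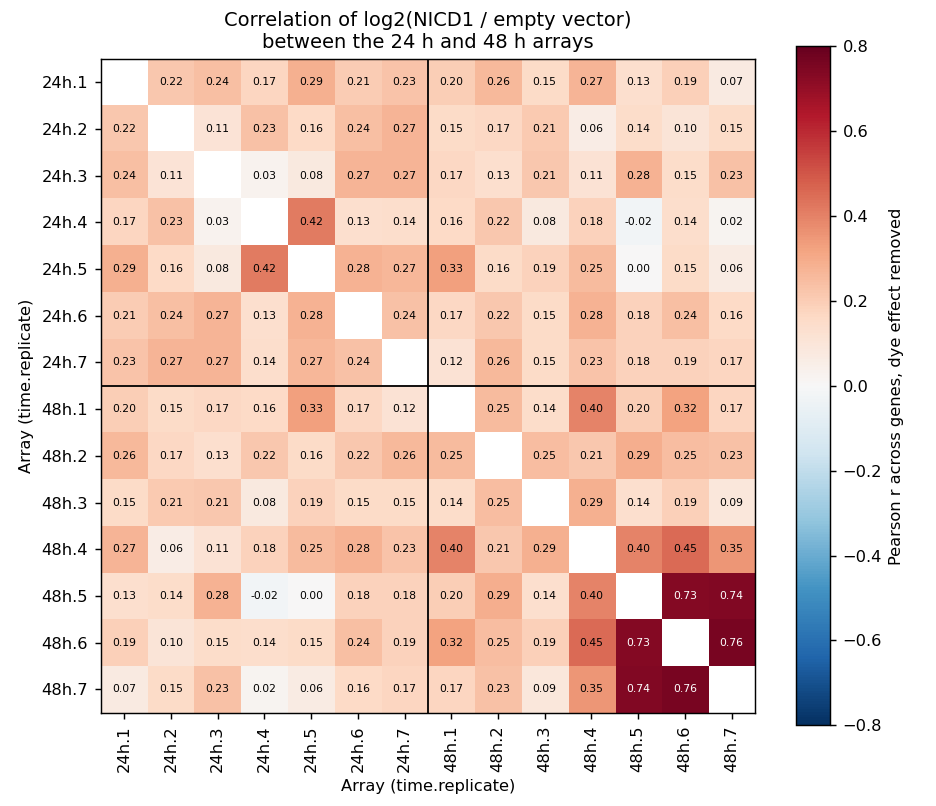
Pearson correlation across genes between the log2 ratios of the 7 arrays at 24 h and the 7 arrays at 48 h, with the dye effect removed; rows and columns are arrays, named by time and replicate, and the colour gives r. The 3 pairs among 48 h replicates 5 to 7, at 0.732 to 0.757, stand above every other pair, of which the highest is 0.454.

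The spread of the log2 ratios across genes was also wider on these 3 arrays, with an SD of 0.754, 0.729 and 0.823 on replicates 5, 6 and 7, against 0.547 to 0.669 on replicates 1 to 4. The dye pattern seen on the other arrays was weak on them: its correlation across genes was 0.092, -0.0074 and 0.090 on replicates 5, 6 and 7, against 0.185, 0.223 and 0.201 on replicates 1, 2 and 4 and -0.189 on replicate 3 as deposited. The part of either in the differences below was not tested. The number of table rows without a value, which the ratios of the remaining rows do not fix, was 6108 ± 689 (SD, n = 3) on replicates 5 to 7 and 6420 ± 768 (n = 4) on replicates 1 to 4. That difference was not past the spread between arrays (exact permutation test, two-sided, p = 0.514). With 35 arrangements the smallest p that this form of the test could give was 0.0571, so it could not pass 0.05.

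A gene is called apart where its 3 values on replicates 5 to 7 lay all above or all below its 4 values on replicates 1 to 4. These values were not adjusted for the dye. Where an array is left out below, the smaller set is separated from the other more easily. Of 15543 genes measured on all 7 arrays, 2291 (14.7%) were apart and higher on replicates 5 to 7, and 2249 (14.5%) were apart and lower. With a dye-adjusted difference of at least 1 on the log2 scale as well, called far apart here, 643 genes (4.14%) were higher and 600 (3.86%) were lower. Dividing each array by its own spread left 367 far apart and higher and 337 far apart and lower. By the same rule of no overlap at 24 h, replicates 5 to 7 were above 1 to 4 for 205 of 15536 genes (1.32%) and below for 227 (1.46%). The genes far apart and higher had a median of 0.08 on replicates 1 to 4 and 1.33 on replicates 5 to 7, and those far apart and lower of -0.03 and -1.26. Below, a pair of values with errors is the mean log2 ratio ± SD of replicates 1 to 4 (n = 4) and then of replicates 5 to 7 (n = 3).

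Genes of the mitochondrial ribosome had the highest share of members apart and lower among the 60 lists with at least 10 measured genes. Of 78 measured, 39 were apart and lower on replicates 5 to 7 and 6 apart and higher, beside 14.5% and 14.7% of all genes. The family's median log2 ratio was -0.17, -0.11, -0.05 and -0.40 on replicates 1 to 4 and -0.63, -0.75 and -0.81 on replicates 5 to 7. All 7 medians lay below 0, replicate 4 stood between its set and the other one, and the median dye-adjusted difference was -0.51, beside -0.03 over all genes.

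Mrpl22, a protein of the large mitochondrial subunit, had log2 ratios of -0.39, -0.20, -0.05 and 0.42 on replicates 1 to 4 and -1.63, -1.81 and -2.64 on replicates 5 to 7. Its means on the sets were -0.05 ± 0.35 (SD, n = 4) and -2.02 ± 0.54 (n = 3), a dye-adjusted 3.78-fold lower ratio. The 24 h arrays, between -0.95 and 0.24, did not reach that range. Mrpl53, another large subunit gene, stood at -0.07 ± 0.18 and -1.76 ± 0.55, and Mrps35, of the small subunit, at -0.22 ± 0.09 and -1.77 ± 0.49. Mrpl21 was at -0.87 on replicate 4, nearer to the -1.46 to -1.87 of replicates 5 to 7 than the other 3 arrays, which lay between -0.22 and -0.11.

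Many import and respiratory genes of mitochondria were lower as well, though not all. Of 24 Tomm and Timm genes, 9 (37.5%) were apart and lower and none higher, with a median difference of -0.44. Without replicate 6, 3 (12.5%) were apart and higher, beside 19.5% of all genes in that setting. Tomm5, a small subunit of the outer membrane import pore, was between -0.56 and -0.08 on replicates 1 to 4 and between -2.06 and -1.48 on replicates 5 to 7. Tomm20, the receptor that recognises mitochondrial targeting signals, stood at -0.28 ± 0.10 and -1.35 ± 0.49. Of 65 respiratory chain subunits 27 (41.5%) were apart and lower and 8 higher, and of 18 ATP synthase subunits 4 (22.2%) lower and 1 higher. Without replicate 4, or without replicate 7, the lower ATP synthase count was 8 (44.4%), beside 19.6% and 17.5% of all genes. Ndufa11, an accessory subunit of complex I, had -0.24, -0.12, -0.15 and 0.19 on replicates 1 to 4 and -1.66, -1.47 and -2.72 on replicates 5 to 7. Cyc1, the cytochrome c1 of complex III, and Cox6b1, a subunit of cytochrome oxidase, were lower by dye-adjusted differences of -1.36 and -1.34. Cyc1 was high on replicate 4, at 0.86, so this array did not lean toward replicates 5 to 7 for every gene of the group. COX2, a cytochrome oxidase subunit and the 1 measured gene of the mitochondrial genome, lay on the other side: it had 0.36, -0.57, -0.48 and -0.46 on replicates 1 to 4 and 0.57, 1.03 and 1.28 on replicates 5 to 7.

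Proteasome genes lay mostly on the lower side. Of 39 subunits, the interferon-induced catalytic ones included, 17 (43.6%) were apart and lower and 2 higher. The median of the family was -0.15, -0.14, -0.07 and -0.46 on replicates 1 to 4 and -0.68, -0.65 and -0.64 on replicates 5 to 7. The 3 medians lay close together, and replicate 4 again stood between. Psmd10, the chaperone gankyrin that helps to assemble the regulatory cap, stood at -0.23 ± 0.29 (n = 4) and -1.88 ± 0.40 (n = 3). Psmd13, a lid subunit, had -0.21, 0.11, 0.14 and 0.28 on replicates 1 to 4 and -1.13, -1.32 and -1.84 on replicates 5 to 7. Psmd14, the deubiquitinase of the lid, was at 0.86 on replicate 4 and at -0.91 or below on replicates 5 to 7.

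In the chaperonin and prefoldin list, 7 of 15 genes (46.7%) were apart and lower and none higher, with a median difference of -0.55. Pfdn5, a prefoldin subunit also known to bind Myc, was between -0.35 and 0.12 on replicates 1 to 4 and at -1.66, -1.67 and -2.39 on replicates 5 to 7, a dye-adjusted 3.36-fold lower ratio. Vbp1, the prefoldin subunit that binds the von Hippel-Lindau protein, stood at -0.17 ± 0.12 and -1.22 ± 0.38, and Tcp1, a chaperonin ring subunit, at 0.08 ± 0.07 and -0.62 ± 0.19. The family was not uniform: Pfdn2, chosen after its values were seen, was at 0.05, 0.68 and 0.54 on replicates 5 to 7 and overlapped the other set. RNA polymerase subunits had 10 of 24 (41.7%) apart and lower and 3 higher, with Polr2c, of the polymerase II core, at -0.27 ± 0.36 and -1.32 ± 0.20.

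Cytosolic ribosomal proteins differed among the 3 arrays. Their median was -0.50 and -0.43 on replicates 5 and 7, which carried NICD1 RNA in Cy3, and 0.05 on replicate 6, which carried it in Cy5. A split by dye was present on the other arrays too. The median was -0.24 and -0.13 on replicates 1 and 3, in Cy3, and 0.09 and -0.03 on replicates 2 and 4, in Cy5. At 24 h it ran from -0.22 to -0.12 on Cy3 arrays and from 0.05 to 0.15 on Cy5 arrays. Of 75 genes, 18 (24.0%) were apart and lower and 5 higher. Without replicate 6 the lower count was 33 and the median difference -0.38 in place of -0.23, beside 3127 of all genes in place of 2249. The median difference was -0.12 without replicate 5 and -0.14 without replicate 3. Rps15 and Rps9, of the small subunit, were among those apart on all 3 arrays: Rps15 had 0.27, -0.38, 0.28 and -0.03 on replicates 1 to 4 and -1.40, -2.01 and -1.60 on replicates 5 to 7.

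**Figure D2:**
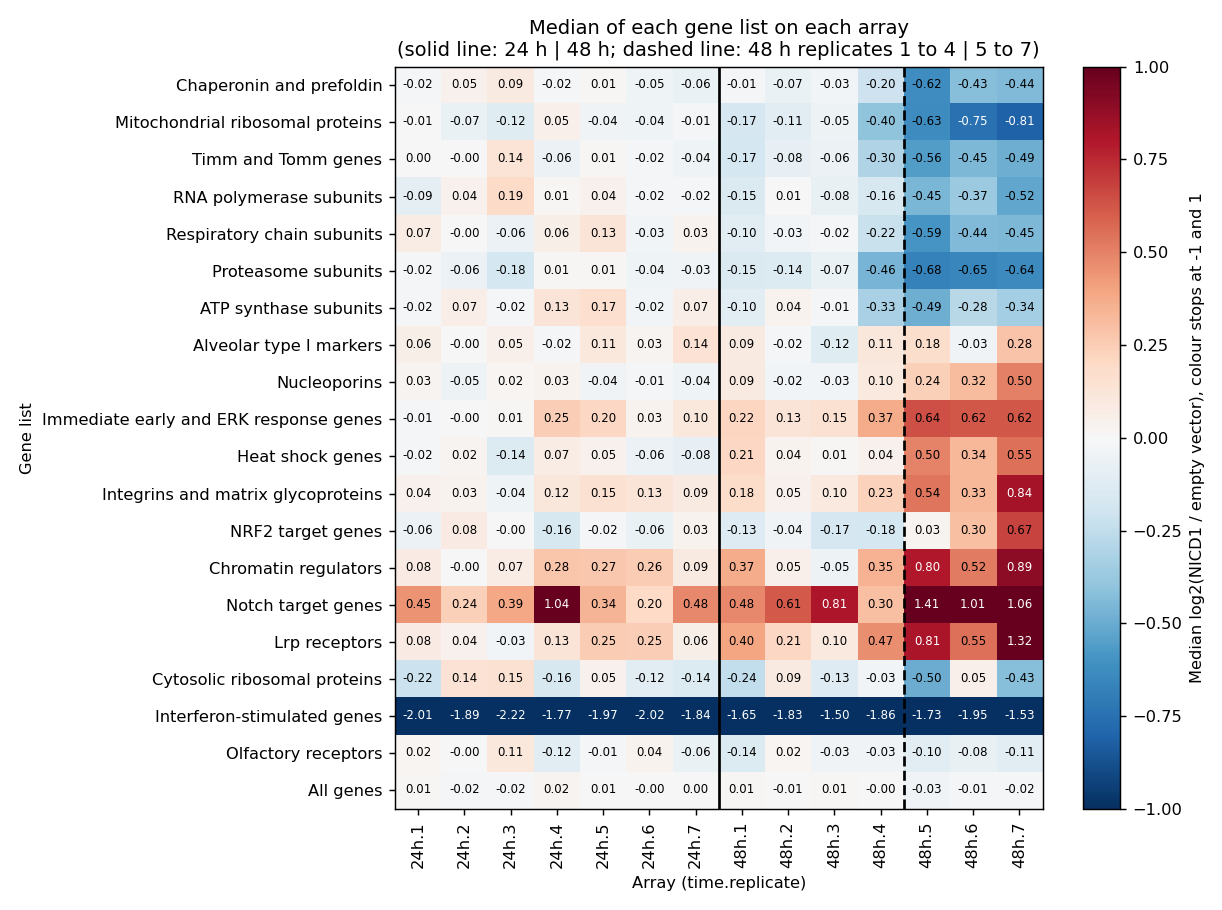
Median log2 ratio of NICD1 over empty vector of each gene list (rows) on each 24 h and 48 h array (columns, time and replicate), with the value printed in each cell. The mitochondrial ribosomal genes read -0.63 to -0.81 on 48 h replicates 5 to 7 and -0.40 on replicate 4, ATP synthase reads -0.28 on replicate 6 and -0.33 on replicate 4, and the interferon-stimulated genes are at -1.95 to -1.499 on all 7 arrays at 48 h.

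The promoters of 3 far apart genes are shown, from lists with members apart mostly or only in one direction. They are Mrpl22 and Psmd10 on the lower side and Setd2, a histone methyltransferase, on the higher side. Each is the stretch from 250 bases before to 50 after the start of the gene in RefSeq, build GRCm38.p6, written 5′ to 3′ along the gene, for Mrpl22 at chr11:58171414-58171713 on the plus strand, for Psmd10 at chrX:140956662-140956961 on the minus strand and for Setd2 at chr9:110532347-110532646 on the plus strand. Capitals mark matches on either strand to CCGGAAG, the core bound by ETS factors, or GGGCGGG, the GC box bound by Sp factors.
Mrpl22: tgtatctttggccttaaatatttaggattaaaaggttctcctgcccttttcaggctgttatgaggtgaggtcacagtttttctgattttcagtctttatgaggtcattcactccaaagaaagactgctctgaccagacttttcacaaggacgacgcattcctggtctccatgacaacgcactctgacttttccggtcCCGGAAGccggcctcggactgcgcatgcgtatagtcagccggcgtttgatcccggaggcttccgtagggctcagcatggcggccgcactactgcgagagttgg
Psmd10: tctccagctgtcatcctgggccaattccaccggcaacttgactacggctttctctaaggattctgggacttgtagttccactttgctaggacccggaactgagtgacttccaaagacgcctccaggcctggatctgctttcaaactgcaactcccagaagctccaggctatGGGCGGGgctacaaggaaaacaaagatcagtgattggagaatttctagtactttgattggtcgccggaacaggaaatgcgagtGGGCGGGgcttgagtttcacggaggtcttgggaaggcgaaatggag
Setd2: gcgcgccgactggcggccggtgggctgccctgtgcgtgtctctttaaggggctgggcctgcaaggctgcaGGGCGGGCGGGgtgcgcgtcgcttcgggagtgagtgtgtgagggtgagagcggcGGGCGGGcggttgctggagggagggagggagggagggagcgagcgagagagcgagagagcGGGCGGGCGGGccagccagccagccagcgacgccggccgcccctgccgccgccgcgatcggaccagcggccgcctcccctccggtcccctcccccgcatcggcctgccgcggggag

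Mrpl22 holds 1 match to CCGGAAG and none to GGGCGGG, Psmd10 holds 2 matches to GGGCGGG, and Setd2 holds 5, counting matches that overlap each other. Pfdn5, far apart in a list with members apart only on the lower side, is not shown and holds no match to either. Hspa4 and Tkt, of the heat shock and NRF2 lists, are not shown either. Hspa4 holds no match and Tkt holds 4 to GGGCGGG. RefSeq promoters were matched for 12512 of the 15543 genes (80.5%). CCGGAAG was present in 16.3% of them, in 23.8% of those apart and lower, in 37.7% of the 69 matched mitochondrial ribosomal genes and in 31.2% of the 32 matched proteasome genes, against 9.93% of all 27025 promoters of the table. It was also present in 41.0% of the 61 matched cytosolic ribosomal genes, a list with a smaller median difference at 48 h. GGGCGGG was present in 45.4% of the matched promoters and 46.5% of those apart and lower. A match is a description and shows no binding. Among genes apart and higher 1826 (79.7%) had a matched promoter. GGGCGGG was present in 58.3% of these and CCGGAAG in 17.1%, and their median GC content was 63.0%. The differences between these groups were not tested. Promoter GC content was 59.2% at the median over all matched genes and 59.0% for those apart and lower, and across all 12512 genes it correlated with the 48 h difference at r = 0.120, given without a test because genes are not independent replicates.

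On the higher side, the list of NRF2 targets had a median difference of 0.51, with 8 of 18 genes (44.4%) apart and higher and 3 apart and lower, beside the 14.7% and 14.5% of all genes. Its array medians on replicates 5, 6 and 7 were 0.03, 0.30 and 0.67, against -0.18 to -0.04 on replicates 1 to 4. Gsr, glutathione reductase, had -0.25, -0.18, -0.18 and 0.05 on replicates 1 to 4 and 1.52, 1.42 and 1.96 on replicates 5 to 7, and each of its 3 array rows was apart. Hmox1, heme oxygenase 1, stood at -0.38 ± 0.14 (n = 4) and 0.94 ± 0.61 (n = 3), and Txnrd1, thioredoxin reductase 1, at -0.04 ± 0.15 and 1.06 ± 0.32. The 3 members apart in the other direction were Nqo1, Gsta4 and Prdx1, detoxifying and peroxide-reducing enzymes named after their values were seen. Nqo1 was no lower than -0.41 on replicates 1 to 4 and between -1.11 and -0.88 on replicates 5 to 7, so the list did not move as a block.

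Heat shock genes were split in the same way. Of 12 measured, 7 (58.3%) were apart and higher and 2 lower, with a median difference of 0.41, which was 0.23 without replicate 6. Hsph1, an Hsp110 co-chaperone, had -0.10, 0.26, -0.07 and -0.16 on replicates 1 to 4 and 1.14, 1.12 and 1.53 on replicates 5 to 7. Hspd1, the mitochondrial chaperonin Hsp60, stood at 0.09 ± 0.08 and 1.13 ± 0.33, and Hsp90aa1, the inducible cytosolic Hsp90, at -0.09 ± 0.29 and 0.75 ± 0.15. The members apart and lower were Hspa8 and Dnajb1, named after their values were seen. Hspa8, the constitutive Hsc70, was at 0.50, 0.01, 0.34 and -0.17 on replicates 1 to 4 and -1.04, -0.68 and -1.45 on replicates 5 to 7. Hspe1, the partner of Hspd1, was at -1.20 on replicate 4 and between -1.15 and -0.88 on replicates 5 to 7, and was not apart.

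Of 29 immediate early and ERK response genes, 11 (37.9%) were apart and higher and 1 lower. Array by array the median was 0.22, 0.13, 0.15 and 0.37 on replicates 1 to 4 and 0.64, 0.62 and 0.62 on replicates 5 to 7. Klf4, a growth-responsive transcription factor, stood at -0.06, -0.04, -0.16 and 0.37 on replicates 1 to 4 and 1.89, 1.61 and 2.34 on replicates 5 to 7, a dye-adjusted 3.77-fold higher ratio. Jund, an AP-1 subunit, stood at 0.23 ± 0.20 and 1.72 ± 0.25, and Egr1, an early response zinc finger factor, at 0.55 ± 0.17 and 1.86 ± 0.20. Fosl2, another AP-1 subunit, had a dye-adjusted difference of 1.12, the mean of rows at 0.43, not apart, and 1.81, apart. At 24 h none of these 4 genes passed the test of the NICD1 effect, with adjusted p between 0.202 and 0.985 (limma, Benjamini-Hochberg).

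Chromatin regulators had a median difference of 0.51 over 25 genes, of which 23 differed in the higher direction, 6 (24.0%) were apart and higher and none apart and lower. Without replicate 6, 13 (52.0%) were apart and higher, beside 19.5% of all genes in that setting. Without replicate 1, 10 (40.0%) were, beside 16.8% of all genes. Setd2, which trimethylates lysine on histone H3 along transcribed genes, had 0.30, 0.21, -0.05 and 0.59 on replicates 1 to 4 and 2.16, 1.77 and 1.51 on replicates 5 to 7. Arid1b, a subunit of the BAF remodelling complex, stood at 0.20 ± 0.28 and 1.30 ± 0.09, and Crebbp, a histone acetyltransferase, at -0.10 ± 0.13 and 0.79 ± 0.40. The rows of Crebbp disagreed, with differences of 0.09, 0.82 and 1.62, of which only the last was apart. Of the 19 nucleoporin genes, 7 were apart and higher and 4 lower, and the median was 0.39. Nup210, a membrane-spanning nucleoporin, was at 1.13 on replicate 4, between the 0.08 to 0.18 of replicates 1 to 3 and the 1.79 to 2.08 of replicates 5 to 7. Nup43, named after its values were seen, lay on the other side at -1.01, -1.36 and -3.25 on replicates 5 to 7. With each array row on its own, the nucleoporin median was -0.18, so its sign depends on whether rows of a gene are averaged, and it was 0.25 without replicate 6 or without replicate 7.

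Among 10 Lrp receptors, a family of endocytic and Wnt receptors, 4 were apart and higher and none lower, with a median difference of 0.54 that was 0.97 without replicate 6, 0.81 without replicate 5 and 0.32 without replicate 7. Lrp12 stood at -0.08 to 0.25 on replicates 1 to 4 and at 1.90, 1.16 and 1.22 on replicates 5 to 7, and Lrp6, the Wnt coreceptor, at 0.24 to 0.48 and at 1.26, 0.85 and 2.58. Of 16 integrin and matrix glycoprotein genes 4 were apart and higher and none lower. The higher count was 7 (43.8%) without replicate 1 or without replicate 4, beside 16.8% and 18.8% of all genes. The median difference of 0.41 was 0.25 without replicate 3. Without replicate 7, 2 (12.5%) were apart and lower, beside 17.5% of all genes. Other lists of surface and matrix genes did not share such a median: 5 of 34 collagen chains (14.7%) and 3 of 9 laminin chains were apart and higher, with median differences of 0.19 and -0.08. The median difference was -0.0055 for 30 ADAM and ADAMTS proteases and 0.01 for 28 semaphorins and plexins, and of 27 keratins 1 was apart in each direction. Nid1, a linker of basement membranes, had -0.28, 0.35, 0.25 and 0.08 on replicates 1 to 4 and 2.67, 1.74 and 2.26 on replicates 5 to 7. Among 26 epithelial junction genes 6 were apart and higher and 1 lower, and Dsp, the desmosomal plaque protein desmoplakin, was at 0.53 ± 0.41 and 1.73 ± 0.22.

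**Figure D3:**
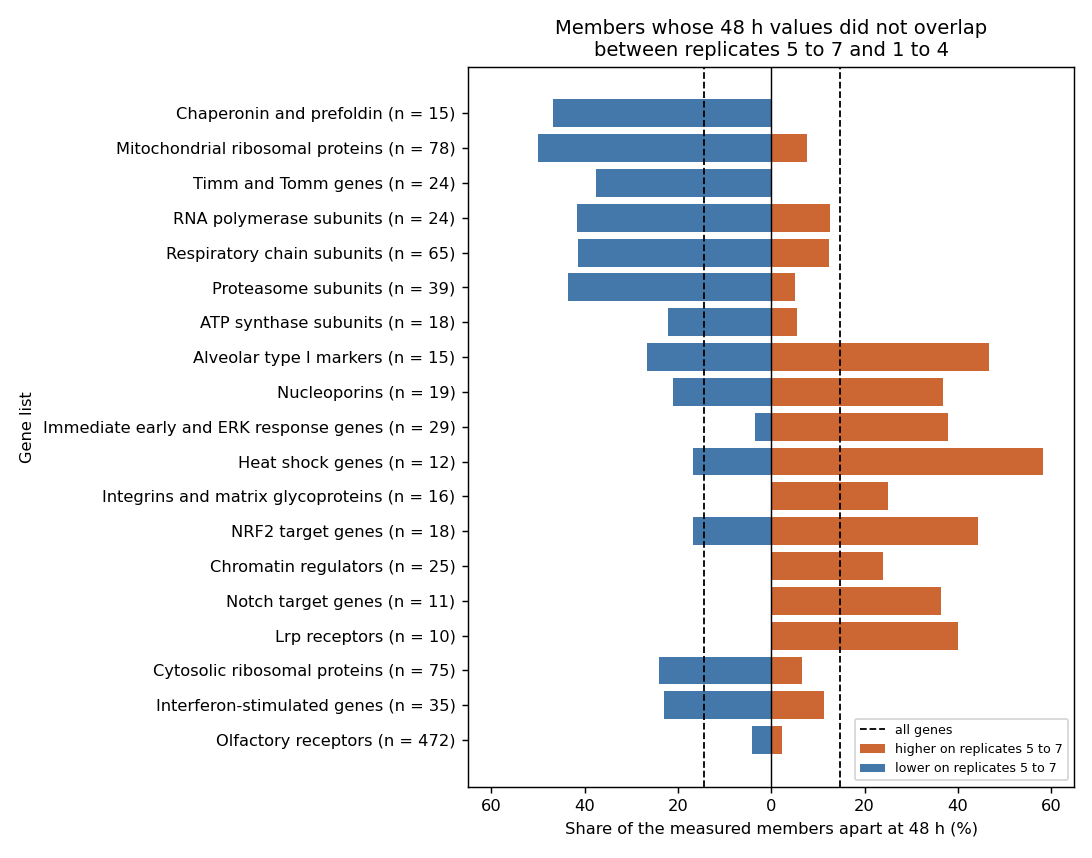
Share of the measured members of each gene list that were apart at 48 h, in percent, to the right where replicates 5 to 7 were higher and to the left where they were lower; dashed lines give the shares over all genes, 14.7% and 14.5%. The mitochondrial ribosomal list reaches 39 of 78 on the lower side and the heat shock list 58.3% on the higher side, while olfactory receptors reach 4.03% and 2.33%.

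Of the genes most directly tied to NICD1, only part followed the sets. Nrarp had 1.31, 2.12, 1.58 and 2.16 on replicates 1 to 4 and 3.10, 3.24 and 2.34 on replicates 5 to 7, so the ranges did not overlap but lay close. Gata3, a lineage factor that Notch induces in lymphocytes, was between -0.35 and 0.44 on replicates 1 to 4 and at 1.71, 0.88 and 2.21 on replicates 5 to 7. It also passed the test of the NICD1 effect at the earlier times (limma). Its ratio was 0.97 ± 0.11 at 12 h (SE, adjusted p = 0.00105) and 0.47 ± 0.10 at 24 h (adjusted p = 0.0343). Myc and Ccnd1, growth regulators that are Notch targets in other cells, were near 0 on replicates 1 to 4, at 0.02 ± 0.11 and -0.05 ± 0.08, and at 0.89 ± 0.45 and 0.73 ± 0.45 on replicates 5 to 7. These 4 were the members of 11 measured Notch targets that were apart. The list's median difference of 0.53 was 0.07 once each array was divided by its own spread, and 0.35 without replicate 5.

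Hey1, Heyl and Hes1, the classic Hes and Hey targets, overlapped between the sets. Hey1 was at 2.25 ± 0.40 (n = 4) and 2.92 ± 0.44 (n = 3), Heyl at 1.69 ± 0.39 and 1.11 ± 0.44, and Hes1 at 0.22 ± 0.11 and 0.29 ± 0.63. Notch1 itself, for which the files do not say whether its probes lie in the transfected domain, was at 0.97 ± 0.61 and 1.28 ± 0.44. Cdh15, M-cadherin, with a 24 h ratio of 4.06 ± 0.11 (SE, adjusted p = 1.21e-09), was at 4.30 ± 0.70 and 4.36 ± 0.76. For these 5 genes the values of the sets overlapped.

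Of 21 measured Notch pathway components, 6 (28.6%) were apart and higher and none lower, and the median difference of 0.26 was 0.14 without replicate 3. Jag2, a Jagged ligand, had 0.43, 0.58, 0.37 and 0.74 on replicates 1 to 4 and 1.83, 2.21 and 1.81 on replicates 5 to 7. Adam10, the protease that makes the first cut of the ligand-bound receptor, stood at 0.11 ± 0.23 and 1.22 ± 0.49. Maml1, a Mastermind coactivator, stood at 0.10 ± 0.32 and 1.11 ± 0.14, and Mib1, a ubiquitin ligase that activates ligands, at -0.01 ± 0.14 and 1.00 ± 0.32. The other members apart were Psen2, of the gamma-secretase complex, and Rbpj. At 24 h none of the 6 passed the test of the NICD1 effect, with adjusted p between 0.193 and 0.975 (limma).

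Interferon-stimulated genes had medians far below 0 on all 7 arrays at 48 h and did not separate the sets as a group. Their median was -1.65, -1.83, -1.499 and -1.86 on replicates 1 to 4 and -1.73, -1.95 and -1.53 on replicates 5 to 7. Of 35 genes, 8 were apart and lower and 4 apart and higher. With each array divided by its own spread the counts were 0 and 12, so neither direction holds under both scalings. Without replicate 6 they were 9 and 9 (25.7% each), beside 20.1% and 19.5% of all genes. Isg15, a ubiquitin-like antiviral modifier, was at -1.63 ± 0.18 and -2.32 ± 0.17, and Irf7, an interferon regulatory factor, at -2.29 ± 0.54 and -3.29 ± 0.22. Mx2 and Ifit1, antiviral effectors, overlapped between the sets at -3.24 ± 0.42 and -2.99 ± 0.85, and at -2.30 ± 0.66 and -1.63 ± 0.46. Cxcl10, an interferon-induced chemokine named after its values were seen, was between -1.57 and -1.02 on replicates 1 to 4 and at -0.19, -0.35 and 0.58 on replicates 5 to 7. Ifnb1, interferon beta, was at -2.88 ± 0.36 and -3.50 ± 0.11, a difference whose sign turned to 0.34 with arrays divided by their own spread.

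None of 9 measured macrophage and leukocyte markers was apart, of 9 endothelial markers 1 was higher and 1 lower, of 12 basal cell markers 2 were higher and 1 lower, and of 11 club, goblet and ciliated markers 1 was lower. The array medians of the macrophage and leukocyte markers ran from -0.25 to 0.02 on replicates 1 to 4 and from -0.50 to 0.03 on replicates 5 to 7, with 8 of 9 differences below 0. Of 20 mesenchymal genes, which include fibroblast markers, 5 were apart and higher and none lower, with a median difference of 0.11 that was -0.02 without replicate 7 and 0.23 without replicate 2 or 5, and with array medians of -0.01 to 0.18 on replicates 1 to 4 and 0.14 to 0.41 on replicates 5 to 7. Over these 20 genes 12 differences were above 0 and 8 below. Thy1, a fibroblast surface protein, stood at -0.84 ± 0.47 and 0.65 ± 0.68, and Vim, the intermediate filament vimentin, at -0.03 ± 0.48 and 1.19 ± 0.42. The rows of Vim had differences of 1.03, not apart, and 1.39, apart. The part of fibroblasts in the other results was not tested. Of 14 alveolar type II markers, 1 was apart: Sftpc, surfactant protein C, at 0.19 ± 0.42 on replicates 1 to 4 and -1.22 ± 0.67 on replicates 5 to 7. Of 15 alveolar type I markers, 7 were apart and higher and 4 lower. Emp2, a membrane protein of type I cells, stood at -0.05 ± 0.23 and 1.14 ± 0.29, while Pdpn, podoplanin, named after its values were seen, stood between -0.15 and 0.46 and at -1.55, -1.41 and -1.51. Olfactory receptors, a family of 472 measured genes with no known role in these cells, had 11 (2.33%) apart and higher and 19 (4.03%) lower.

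Hypoxia and glycolysis genes had 6 of 23 apart and higher and 7 lower, and a median difference of -0.05 whose sign depended on single arrays: it was -0.19 without replicate 6, 0.07 without replicate 4 and 0.10 without replicate 5. On the lower side, Bnip3, a hypoxia-induced mitophagy receptor, was between -0.13 and 0.25 on replicates 1 to 4 and at -1.16, -1.21 and -2.08 on replicates 5 to 7. Pgk1, the glycolytic phosphoglycerate kinase, was between -0.02 and 0.17 and at -0.83, -0.75 and -0.76. On the higher side, and named after their values were seen, Hk2, hexokinase 2, was between -0.51 and 0.23 on replicates 1 to 4 and at 1.79, 1.78 and 1.99 on replicates 5 to 7, and Slc2a1, the glucose transporter Glut1, was between -0.30 and 0.30 and at 1.38, 1.46 and 2.25. The replication genes Cdt1, a licensing factor, and Mcm6, of the replicative helicase, were higher on replicates 5 to 7 by 1.59 and 1.19, and replicate 4 stood at 1.07 and 0.87, above replicates 1 to 3. Of 26 G1/S and replication genes, 8 were apart in each direction.

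**Figure D4:**
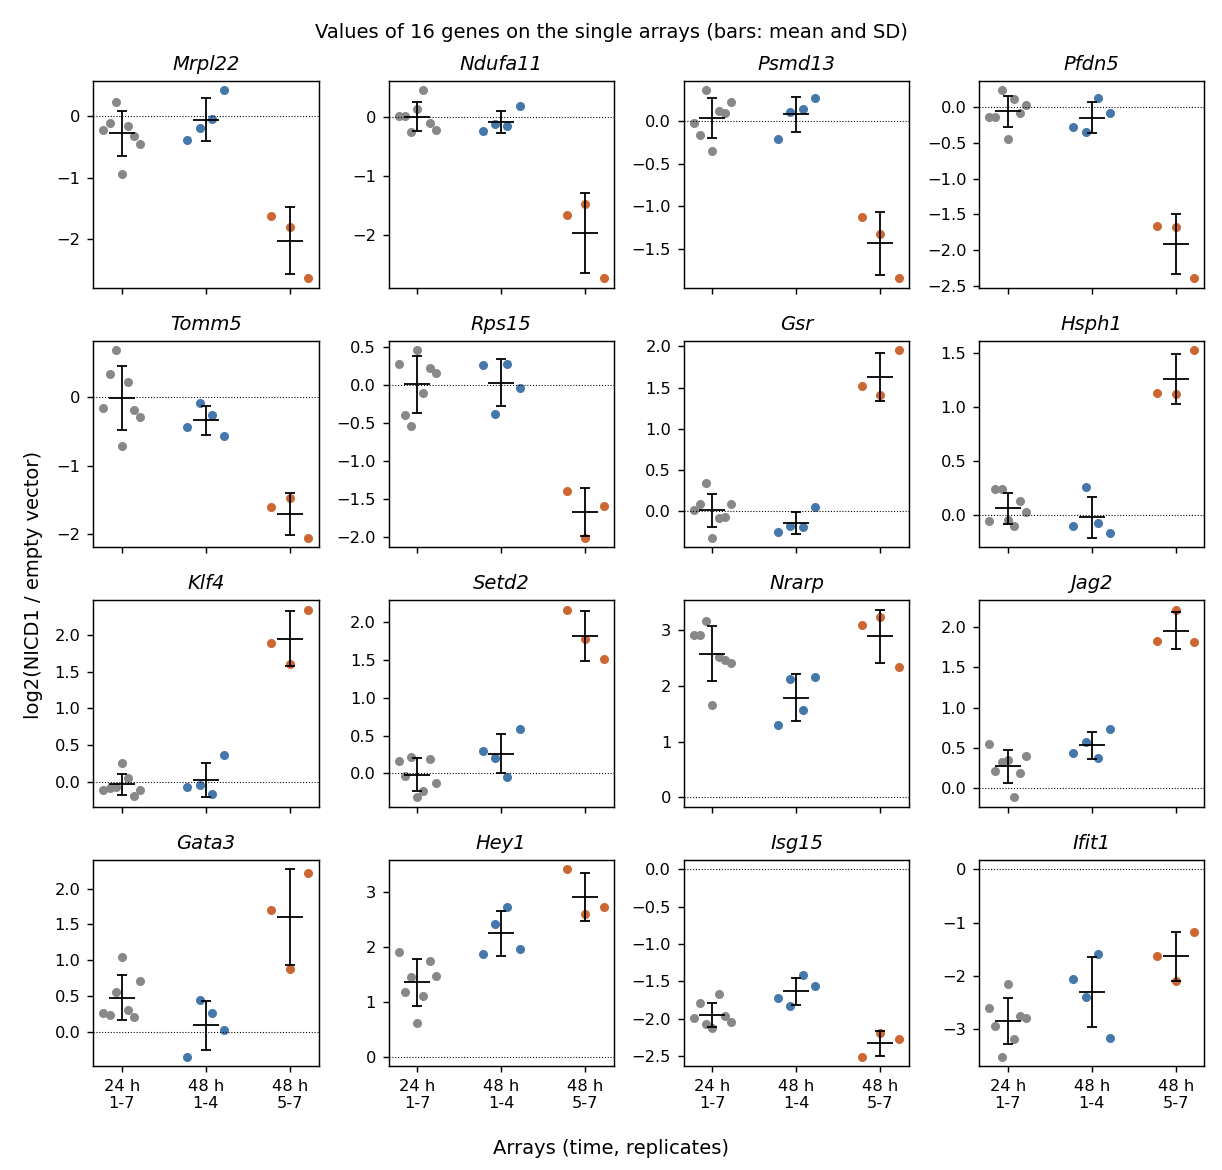
Log2 ratios of NICD1 over empty vector of 16 genes on the single arrays at 24 h (grey, replicates 1 to 7), 48 h replicates 1 to 4 (blue) and 48 h replicates 5 to 7 (orange), with the mean and SD of each group; the dotted line is 0 and each panel has its own vertical scale. Mrpl22 reads -1.63 to -2.64 and Klf4 1.61 to 2.34 on 48 h replicates 5 to 7, away from the other arrays, while Hey1 and Ifit1 overlap.

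The genes with the largest differences among those apart were Pla2g2c, a secreted phospholipase, and Aqp4, a water channel, on the higher side, and Guca1a, a guanylate cyclase activator, and Orm1, an acute phase plasma protein, on the lower side. The 12 largest on the higher side also held the olfactory receptors Olfr1281 and Olfr130. Some of these genes shared identical values. Pla2g2c was at -3.06 on replicate 1, as was Gm31007, and at -1.57 on replicate 3, as was Olfr130. Aqp4 was at -0.38 on replicate 4, as was Tafa4 of the lower side. The cause was not tested, and such values may not reflect RNA levels. Pla2g2c varied widely within its set, from -3.06 to 0.16 on replicates 1 to 4 and from 0.26 to 2.40 on replicates 5 to 7. More even were Slc6a9, the glycine transporter GlyT1, at -0.45, -0.34, -0.51 and 0.15 on replicates 1 to 4 and 1.96, 1.68 and 2.28 on replicates 5 to 7, a dye-adjusted 4.82-fold higher ratio, and Zfpm1, the GATA cofactor FOG1, at 0.18 ± 0.15 and 2.49 ± 0.48. Piezo1, a mechanically gated channel, was at 0.48 ± 0.39 and 2.56 ± 0.21. Orm1 had -0.44, -0.22, -0.11 and -0.33 on replicates 1 to 4 and -2.17, -2.96 and -3.20 on replicates 5 to 7, and its paralogue Orm2, which may share probes with it, -0.32 ± 0.31 and -2.31 ± 0.28. Cyba, the p22phox subunit of NADPH oxidases, was at 0.10 ± 0.17 and -2.05 ± 0.56.

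The 3 arrays were not equal to each other. Among the 643 genes far apart and higher, the median ratio was 1.36, 1.14 and 1.54 on replicates 5, 6 and 7, and replicate 6 had the lowest of the 3 values in 416 genes. Among the 600 far apart and lower, the medians were -1.10, -1.17 and -1.56, and replicate 7 was farthest in 417. Without replicate 6, 990 genes were far apart and higher and 942 lower. Replicate 6 was the only array of its set with NICD1 RNA in Cy5, so this setting left only Cy3 there. The part of the dye and of the smaller set in these counts was not tested. Within the other set, replicate 4 had the value nearest to replicates 5 to 7 in 296 (46.0%) of the higher and 291 (48.5%) of the lower genes. Its median over those genes was 0.19 and -0.13. A distance from the 3 arrays is fixed here, since genes where replicate 4 overlapped them were left out.

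The same replicate numbers were compared at the times that played no part in choosing them. Whether arrays with the same number share a culture or transfection across times is not known. The results at 12 and 24 h therefore describe those arrays only. At 24 h, replicates 5 to 7 against 1 to 4 gave 0 of 16528 genes at an adjusted p under 0.05 (0.0%; limma with a dye term over the 13 arrays of 12 and 24 h, Benjamini-Hochberg), with 519 at an unadjusted p under 0.05 and a smallest adjusted p of 0.890. At 12 h, replicates 5 and 6 against 1 to 4 gave 0 of 16528 (0.0%), with 746 at an unadjusted p under 0.05 and a smallest adjusted p of 0.645. Leaving out 24 h replicate 2 gave 1 gene, Tktl2, at 1.70 ± 0.17 (SE, adjusted p = 0.0443), and leaving out 24 h replicate 7 gave 1 gene, Csrnp3, at 5.23 ± 0.47 (adjusted p = 0.0472). Both are named after their values were seen. Without replicate 7 the Csrnp3 value rests on replicate 5 alone, at 4.56, since replicate 6 has no value for it. Fitted in the same way on the 7 arrays of a time, the difference had an SD across genes of 0.604 at 48 h and 0.323 at 24 h.

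The 6 lists with a 48 h median difference farthest from 0 had 24 h medians of 0.10 or less. The mitochondrial ribosomal list had a 24 h median difference of 0.02, with 1 of 78 genes not overlapping and higher and none lower, against 1.32% and 1.46% of all genes. The chaperonin and prefoldin list had 0.0048, the Lrp list 0.05, the Notch target list 0.01, the chromatin list 0.10 and the NRF2 list 0.03. At 12 h the medians of these 6 lists were -0.01, 0.03, -0.0045, -0.03, -0.27 and -0.02. Over 60 lists with at least 10 measured genes, the 24 h medians lay between -0.06 and 0.16, and the 48 h medians between -0.55 and 0.54. Gene by gene, the 48 h difference correlated with the 24 h difference at r = -0.014 and with the 12 h difference at r = -0.115 across 15267 genes, as a description of these arrays.

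**Figure D5:**
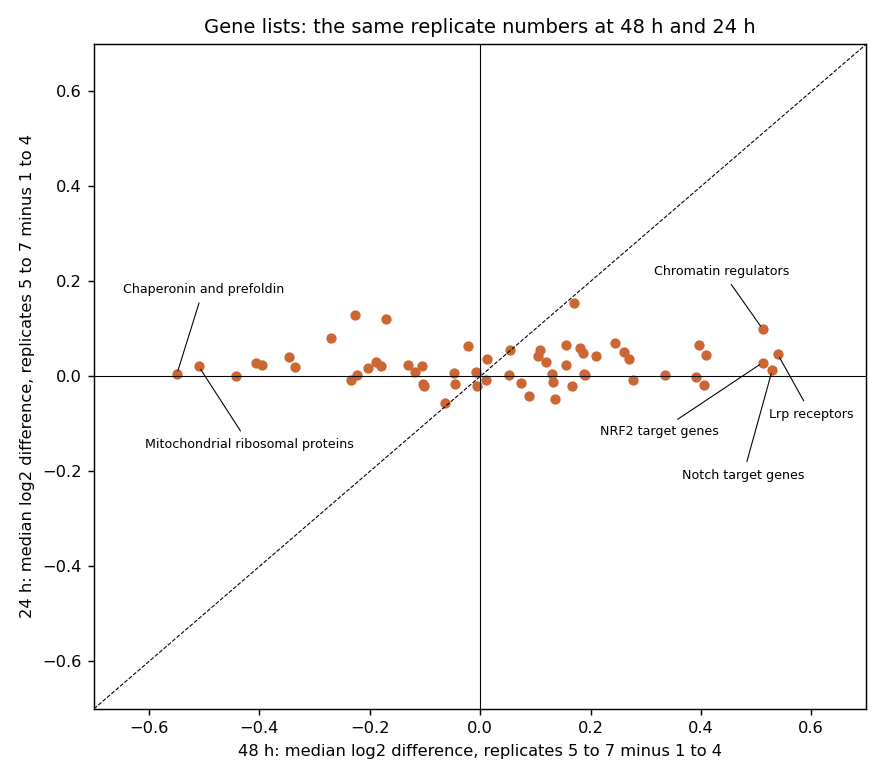
Each point is a gene list of at least 10 measured genes: its median log2 difference between replicates 5 to 7 and 1 to 4 at 48 h (horizontal) and at 24 h (vertical), with the dashed line marking equal values. The lists spread from -0.55 to 0.54 at 48 h and from -0.06 to 0.16 at 24 h.

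The NICD1 effect at 24 h, from arrays outside the choice, passed the test for 81 genes higher (0.49%) and 265 lower (1.6%) of 16528 (limma, adjusted p under 0.05). Of the 77 higher that were measured on all 48 h arrays, 23 were apart and higher and 1 apart and lower on 48 h replicates 5 to 7, and the median ratio was 0.41 on replicates 1 to 4 and 0.72 on replicates 5 to 7. Of the 258 lower, 49 were apart and higher and 50 apart and lower, with medians of -0.69 and -0.77. In both directions together, 31.2% of the 77 and 38.4% of the 258 were apart. Over all genes 14.7% were apart and higher and 14.5% apart and lower. The part of the wider spread of replicates 5 to 7 in these counts was not tested. The 24 h effect was in turn called for 72 of 2285 genes apart and higher (3.15%), 51 of 2234 apart and lower (2.28%) and 212 of 10748 others (1.97%). Across 15267 genes, the 48 h difference and the 24 h NICD1 effect correlated at r = 0.034.

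Many genes have several rows in the table, measured on the same RNA. Of 6103 genes with several rows measured on all 7 arrays at 48 h, 249 had rows apart in both directions and 40 had a row above 1 and a row below -1. The SD of the difference between rows of a gene was 0.383 at the median, against 0.673 over all rows. Where the rows of a gene disagree, its mean combines rows that differ.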

How the data were processed

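The deposited table holds 1 value per array row and array, a log2 ratio of NICD1 over empty vector, in 45220 rows and 20 columns, with 14.2% of values missing. Per the labels, RNA was labelled with 2 colours in a balanced dye swap, and limma is named in the submitters' processing notes; the sources used here give no version, background correction or normalization. Intensities are not used here, and precision is limited by how many arrays there are. The build of the array annotation is not named, so no coordinates other than those of RefSeq promoters are given.

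Columns 12 h replicate 3 and 48 h replicate 3 were multiplied by -1, a choice made from the values (Nrarp and the dye pattern), since the labels do not call them inverted. Rows were named from GEO's platform annotation (33653 with 1 symbol, 56 with several, 11511 not listed) and averaged per gene; an older symbol in a list was resolved through RefSeq only where it belongs to 1 gene. This gave 15543 genes with a value on all 7 arrays at 48 h. Differences between the sets are least squares estimates with a dye term, computed in Python 3.11.15 with numpy 2.4.6 and pandas 2.3.3. The tests at 12 and 24 h used limma 3.58.1 in R 4.3.3 with a dye term on 16528 genes and Benjamini-Hochberg adjustment at 0.05, and were tested on simulated data. Exact permutation tests used scipy 1.17.1. Figures were drawn with matplotlib 3.10.9.

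The arrays, gene lists and alternatives were chosen with earlier results of these data known. Named genes are the 12 with the largest difference among those apart in each direction, up to 4 per list in the direction of its median, and a few Notch and interferon genes. Alternatives covered the dye term, array scaling, the turned arrays, averaging of rows, a replicate block and leaving out each array. Samples were not treated as paired by replicate number in the reported fits. Deviations of arrays with the same number correlated between -0.232 and 0.149, which cannot show whether they share a culture.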

Additional observations from a re-analysis of the deposited data

Results flagged for a closer look

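Among 254 checks of single genes for 1 value far from the others of the 7 arrays at 48 h (the gap divided by the range, above 0.568), 2 stood out. That is fewer than the 1 in 20 this rule gives for normal values without groups. The named genes were mostly chosen for a split between the sets, so that rate need not apply to them. Trp53inp1, a p53-induced autophagy regulator, was at -0.8209 on replicate 5 and between -0.19 and 0.10 on the other 6 arrays. That is a mean of rows apart in opposite directions, with differences of -1.38 and 0.60. Hes1, a Notch target, was at 1.0065 on replicate 6 and between -0.21 and 0.30 on the other 6 arrays. As a gene mean, each outlying value lies on 1 array of replicates 5 to 7 and not on the other 2.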

How the results depend on the processing

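The 643 genes far apart and higher and 600 far apart and lower became 367 and 337 with arrays divided by their own spread, with 670 of 704 among the 1243 of the reported setting, and 1710 and 1220 when each array row was counted on its own, where 8038 rows in place of 4540 genes were apart. Leaving out 1 array at 48 h gave 595 to 990 far apart and higher, 494 to 942 far apart and lower and 5068 to 6176 apart, with the highest far apart counts without replicate 6. With 48 h replicate 3 as deposited 1308 genes were far apart, of which 988 were in the reported 1243. With the replicate block over all 20 arrays 674 were far apart and higher and 627 lower, of which 1032 were in the reported set. The set difference at 24 h gave 0 to 1 genes when 1 array was left out, and at 12 h 0 to 0. The NICD1 effect at 24 h gave 175 genes without replicates 5 to 7, 125 without replicates 1 to 4 and 270 to 360 without 1 array. At 12 h it gave 47 genes, 16 with the 12 h arrays fitted alone and 33 to 54 without 1 array. The replicate block as a random effect gave 341 genes at 24 h and 48 at 12 h. The nucleoporin median turned to -0.1793 with each row on its own, the Adamts14 difference to 0.1078 with the replicate block and the Ifnb1 difference to 0.336 with scaled arrays; the cause was not tested. For the 236 named genes, each compared under several settings, the difference moved by less than the spread between arrays in 1524 pairs of gene and setting and by more in 108, and when 1 array was left out in 1618 and 34. The ratios carry no signal over background, so the reliability of dim probes is unknown.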

Other observations

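Solute carriers, transporters of small molecules across membranes, had 48 of 250 measured genes (19.2%) apart and higher on 48 h replicates 5 to 7 and 15 (6.0%) lower, beside 14.7% and 14.5% of all genes, with a median difference of 0.07. Cholesterol synthesis genes, of the mevalonate pathway, had 4 of 19 higher and 7 lower. Replication-dependent histone genes had 8 of 30 (26.7%) lower and 3 higher, with a median difference of -0.18. Kinesin motors had 6 of 34 higher and none lower. Wnt targets had 4 of 12 higher and none lower, and p53 targets 5 of 18 in each direction. These lists were picked for mention after their values were seen.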
